A study of Mus musculus with 38 samples.

Results

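The clustered protocadherins are 57 genes that lie side by side in 3 clusters on mouse chromosome 18, and they were followed here over tissue, genotype, and sex. They were chosen by name: every gene whose symbol was Pcdha, Pcdhb, Pcdhga, Pcdhgb, or Pcdhgc followed by a number, and Pcdhac1 and Pcdhac2. This gave 57 of the 54058 genes of the count table, 13 in the alpha cluster, 22 in the beta cluster, and 22 in the gamma cluster. The gamma cluster holds 12 genes of type A, 7 of type B, and the C-type genes Pcdhgc3, Pcdhgc4, and Pcdhgc5, and the alpha cluster holds the other two C-type genes. On GRCm38 the alpha genes span positions 36930184 to 37187661, the beta genes 37264938 to 37524479, and the gamma genes 37661793 to 37841873. Pcdhgb8 is annotated as a polymorphic pseudogene.

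RNA-seq was carried out on bulk tissue dissected from the prefrontal cortex (PFC) and the hypothalamus (Hypo) of adult FVB/NJ mice. Ube3a2X mice are homozygous for a transgene that carries extra copies of Ube3a, a ubiquitin ligase gene, whichever parent passed it on, and they were compared with wild-type (WT) controls. All Ube3a2X mice come from 1 transgenic line, so the effect of the extra copies and that of the insertion cannot be told apart. The 38 libraries came from 25 mice, of which 13 gave both tissues, with 5 libraries in each of the 4 groups of sex and genotype in the PFC. In the Hypo there were 4 WT libraries and 5 Ube3a2X libraries of each sex. The tissues also differ in the RNA put into the library (500 ng for the PFC, 1000 ng for the Hypo) and in the RNA extraction kit (RNeasy Micro for the PFC, RNeasy Mini for the Hypo), and these cannot be told apart from tissue.

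Clustered protocadherins are cell surface proteins that bind copies of themselves on the facing cell, and neurons use the combination they carry to tell their own branches from those of others. Each gene has its own large first exon with its own promoter. In the alpha and gamma clusters, this variable exon is spliced to a few constant exons, at the end of the cluster, that encode the shared cytoplasmic tail. Beta genes have no constant exons. The alternate variable exons are chosen by chance in each neuron through CTCF and cohesin loops to distant enhancers, whereas the C-type genes are used more uniformly within cell types. No sequence of a member is shown.

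Because of the constant exons, the rows of the alpha and gamma genes in the count table are nearly the same numbers. The bases that every gene of the cluster shares were 2860 in the alpha and 2116 in the gamma cluster. The reads common to all rows of a cluster were taken as its lowest row in each library. They made up, as the median over libraries, 98.8% of the reads of a typical alpha row and 99.1% of a typical gamma row in the PFC, and 97.6% and 98.3% in the Hypo. The lowest of these medians were 84.7% for Pcdhac2 and 83.3% for Pcdhgc5 in the PFC, and 78.8% for Pcdhac2 and 85.8% for Pcdhgc3 in the Hypo. So 3 quantities were kept apart: the row as deposited, the shared reads (constant exons, and whatever else all rows hold), and the reads outside the shared exons, which are the row minus the lowest row of its cluster. The last counts the reads on a gene's exons outside the shared ones, less whatever else the lowest row holds, and is not always the gene's own: exons of Pcdhga4 and Pcdhgb1 overlap by 1038 bases, and 902 bases of Pcdhgc5, 2410 of Pcdha4, and 338 of Pcdha7 also belong to the annotated genes Gm38182, Gm42416, and Gm37388. In 8 genes (Pcdha1, Pcdha2, Pcdha8, Pcdhga1, Pcdhga2, Pcdhgb2, Pcdhgb4, and Pcdhgb7) the row was itself the lowest in at least 1 library, and no fold is given for their own reads. This left 27 alpha and gamma genes and the 22 beta genes, 49 in all. Beta genes resemble each other closely, and how reads that align to several of them were counted is not given in the sources used here, so values of a single beta gene are uncertain to that extent.

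Counted reads per library were 36.8 to 68.9 M (median 57.4 M) in the PFC and 38.9 to 379.6 M (median 68.7 M) in the Hypo. Ube3a, which checks the genotype labels, was at 106 to 350 CPM (counts relative to library size, TMM-scaled) in WT and 700 to 2276 CPM in Ube3a2X libraries, with no overlap. Cortex identity genes summed to 733 to 1107 CPM in the PFC against 61.5 to 87.5 CPM in the Hypo, and hypothalamus identity genes to 1.10 to 3.95 CPM against 501 to 2236 CPM. Pituitary markers were at 14.3 to 936 CPM in 17 Hypo libraries and at 4686 CPM in the library of Hypo WT female 471.

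This library, Hypo WT female 471, stood apart from the rest in the protocadherins themselves. Its shared reads were like those of the others, with 89.3 CPM for alpha and 356 CPM for gamma. Its reads outside the shared exons were 5.80 CPM for alpha, against at least 41.5 CPM in every other library of the Hypo, and 38.6 CPM for gamma, against at least 185 CPM. Reads outside the shared exons were 6.10% of its alpha reads and 9.78% of its gamma reads. In the other Hypo libraries they were 30.7 to 43.3% and 34.9 to 43.5%. The sum of its beta genes, 107 CPM, was the lowest of all libraries. Its RNA integrity number (RIN) was 9.3, a value that no library exceeded, but its ratio of coverage at the 5′ over the 3′ end of transcripts was 0.489, below the 0.516 to 0.943 of the other Hypo libraries. UTR bases made up 53.7% of its aligned bases, more than in any other library. What part these measures have in its protocadherin values was not tested. The plot of the share of reads outside the shared exons shows this library by itself, and results that rest on it are given with and without it.

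**Figure D1:**
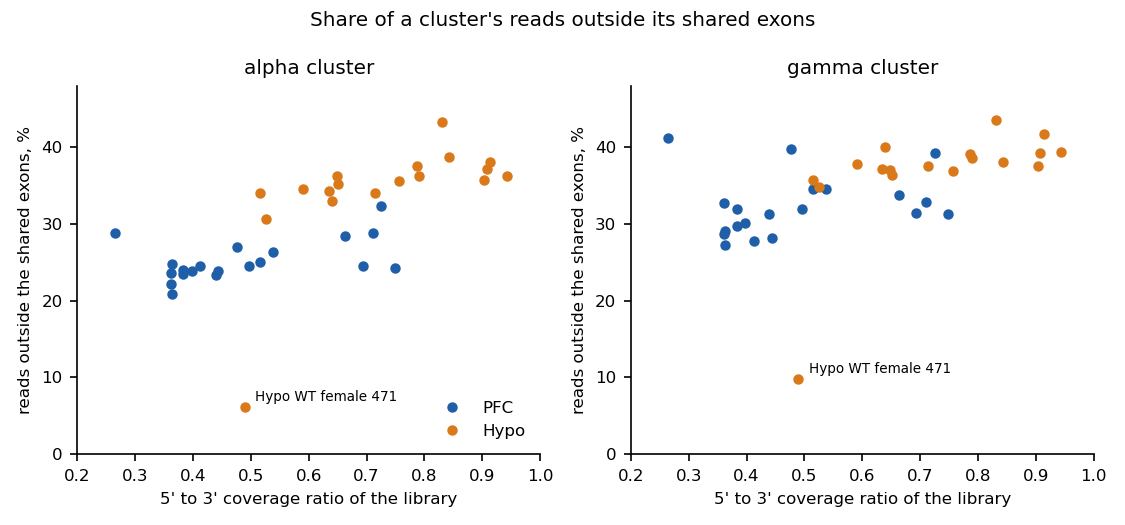
Reads outside the shared exons as a percent of all reads of the alpha cluster (left) and the gamma cluster (right), each shared read counted once, against the ratio of coverage at the 5′ over the 3′ end of transcripts, 1 point per library. Hypo WT female 471 lies at 6.10% and 9.78%, whereas the other Hypo libraries lie at 30.7 to 43.3% and 34.9 to 43.5%, and the PFC libraries at 20.9 to 32.4% and 27.2 to 41.3%.

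Levels were compared between genes per kb of the exon sequence not shared by the whole cluster, as the median CPM per kb over the libraries of a tissue. The alpha and gamma clusters were each led by C-type genes, and the beta cluster was flatter. Pcdhac2 had 11.4 CPM per kb in the PFC and 8.04 in the Hypo, and no other alpha gene passed 2.58 in either. After it came Pcdha12 (2.58) and Pcdha4 (1.29) in the PFC, and Pcdha4 (1.66) and Pcdha9 (1.08) in the Hypo. The lowest alpha genes in both tissues were Pcdha1 (0.0517 CPM per kb in the PFC and 0 in the Hypo) and Pcdha8 (0 and 0.0593), which lie at or near the lowest row by construction.

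In the gamma cluster, the order of the C-type genes differed between the tissues. Pcdhgc5 led in the PFC with 18.5 CPM per kb, followed by Pcdhgc3 (13.2) and the type A gene Pcdhga6 (4.69), whereas Pcdhgc4 was at 1.90. In the Hypo, Pcdhgc3 led with 17.8 CPM per kb, followed by Pcdhgc4 (9.18) and Pcdhga7 (5.37), and Pcdhgc5 was at 2.41. Pcdhga1 (0.137 and 0 CPM per kb) and Pcdhgb4 (0.0886 and 0.258) were the lowest gamma genes in both tissues.

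In the beta cluster, the highest levels in the PFC were those of Pcdhb8 (5.06 CPM per kb), Pcdhb7 (4.97), and Pcdhb3 (4.70), and in the Hypo those of Pcdhb8 (4.39), Pcdhb6 (4.11), and Pcdhb3 (3.602). Pcdhb1 (0.104) and Pcdhb15 (1.15) were the lowest in the PFC, and Pcdhb4 (1.05) and Pcdhb13 (1.11) in the Hypo. The 3 highest genes of a cluster held 72.2% of the summed level of alpha, 25.8% of beta, and 56.3% of gamma in the PFC, and 64.9%, 22.7%, and 47.1% in the Hypo. These shares are a description of level per kb, with no test.

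**Figure D2:**
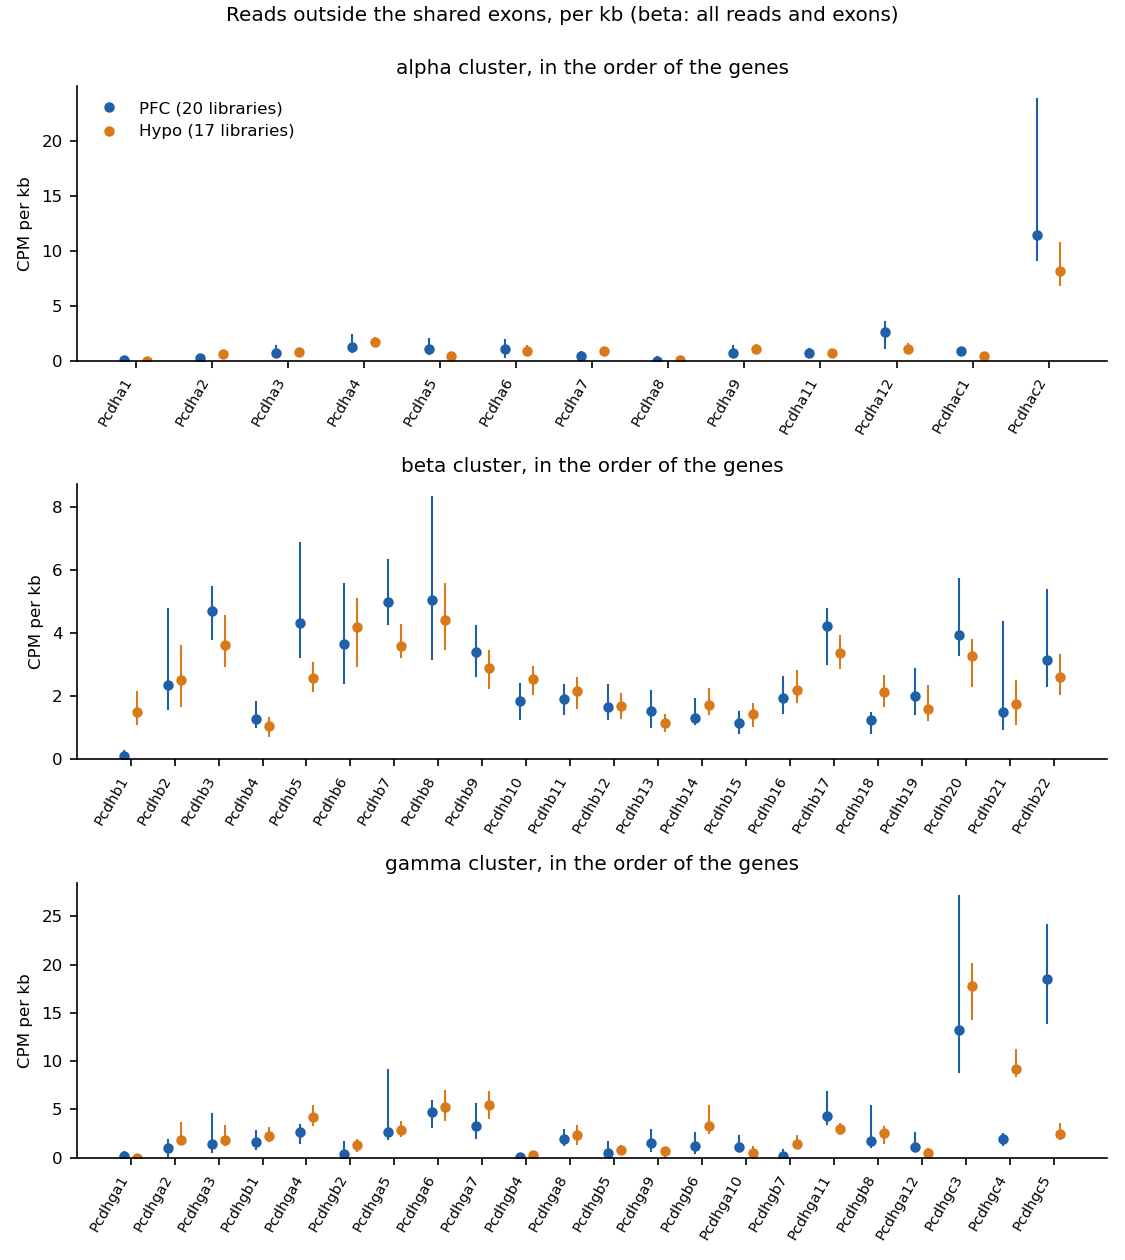
Level of each gene in CPM per kb of exon not shared by the whole cluster, in order along the alpha, beta, and gamma clusters. Dots are the median and lines run from the lowest to the highest of 20 PFC libraries and of 17 Hypo libraries (Hypo WT female 471 left out). Pcdhac2 stands out in alpha in both tissues, and in gamma Pcdhgc5 stands out in the PFC and Pcdhgc4 in the Hypo, with Pcdhgc3 high in both.

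The constant exons gave a further view on the total use of a cluster. Per kb, the reads shared by all alpha rows were at 67.5 CPM in the PFC and 31.1 CPM in the Hypo, and those of gamma at 242 and 164 CPM. The variable exons together were at 21.2 and 16.6 CPM per kb in alpha and at 64.7 and 68.7 CPM per kb in gamma, below the constant exons of the same cluster in both tissues. Since reads of the lowest row were taken off, and coverage in these libraries was lower at the 5′ end, where the variable exons lie, the 2 levels do not measure the same thing. The 22 beta genes summed to 57.1 and 53.3 CPM per kb.

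The first comparison asked how the 3 clusters differ between the PFC and the Hypo. Shared reads of the alpha cluster ranged from 160 to 277 CPM (median 193) over the 20 PFC libraries and from 73.8 to 99.8 CPM (median 89.1) over the 18 Hypo libraries. Every PFC library lay above every Hypo library, a log2 difference of 1.18 (SE 0.0654, edgeR adjusted p 8.26e-18). Shared reads of the gamma cluster ranged from 450 to 619 CPM (median 512) in the PFC and from 320 to 387 CPM (median 348) in the Hypo. These groups did not overlap either, with a smaller log2 difference of 0.53 (SE 0.0582, edgeR adjusted p 7.76e-10). In bulk tissue, fewer cells of a type and less RNA per cell cannot be told apart.

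The beta cluster, which has no constant exons, was close between the tissues. Its summed level ranged from 200 to 323 CPM (median 232) in the PFC and from 107 to 256 CPM (median 216) in the Hypo, and the groups overlapped. The log2 difference of the cluster totals was 0.19 for beta (pooled SD between mice 0.201), against 1.11 for alpha (SD 0.112) and 0.55 for gamma (SD 0.0908). Counted from reads outside the shared exons, the alpha difference was 0.59 and the gamma difference 0.34, smaller than over the rows, and without Hypo WT female 471 they were 0.39 and 0.18, with 0.12 for beta. These differences of the reads outside the shared exons had pooled SDs between mice of 0.538 for alpha and 0.436 for gamma. Scaled by the total counts without TMM factors, the beta difference was -0.085. These totals are sums over the members and have no test.

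Among the rows as deposited, 46 of the 57 members were called between the tissues at an adjusted p under 0.05, 44 higher and 2 lower in the PFC. Over all 22232 genes tested, 63.4% were called, 31.0% higher and 32.4% lower, and the median log2 difference of all genes was -0.02. All 13 alpha rows (log2 difference 1.10 to 1.19, median 1.16) and all 22 gamma rows (0.42 to 0.75, median 0.52) were called higher in the PFC, and in all of them every PFC library lay above every Hypo library, as in 10.9% of all genes. No member had every PFC library below every Hypo library, as 9.52% of genes had. Without Hypo WT female 471, Pcdhb1 and Pcdhb18 did, where 12.8% of genes lay apart in this direction and 12.4% in the other. With nearly all of their reads in common, these 35 rows are not 35 observations. The rows with the smallest p, Pcdha5, Pcdha12, Pcdha1, Pcdhac1, and Pcdha8, differed by 1.18 to 1.19 on the log2 scale, which is the difference of the shared reads. Of the 22 beta rows, 9 were higher, 2 were lower, and 11 were not called (median 0.21).

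Outside the shared exons the picture was mixed. Of the 49 members that can be resolved, 18 were higher in the PFC, 7 were lower, and 24 were not called, where 63.3% of the 22234 genes tested were called (30.9% higher, 32.4% lower). By cluster, 4 alpha genes were higher and 1 lower of 10, 9 beta genes higher and 2 lower of 22, and 5 gamma genes higher and 4 lower of 17. The median log2 difference was 0.23 in alpha, 0.21 in beta, and -0.09 in gamma, and without Hypo WT female 471 it was 0.16, 0.14, and -0.16. Without that library, 19 were higher and 11 lower, and of all genes 30.5% were higher and 36.2% lower. The plot of the tissue differences sets these values beside those of the rows.

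**Figure D3:**
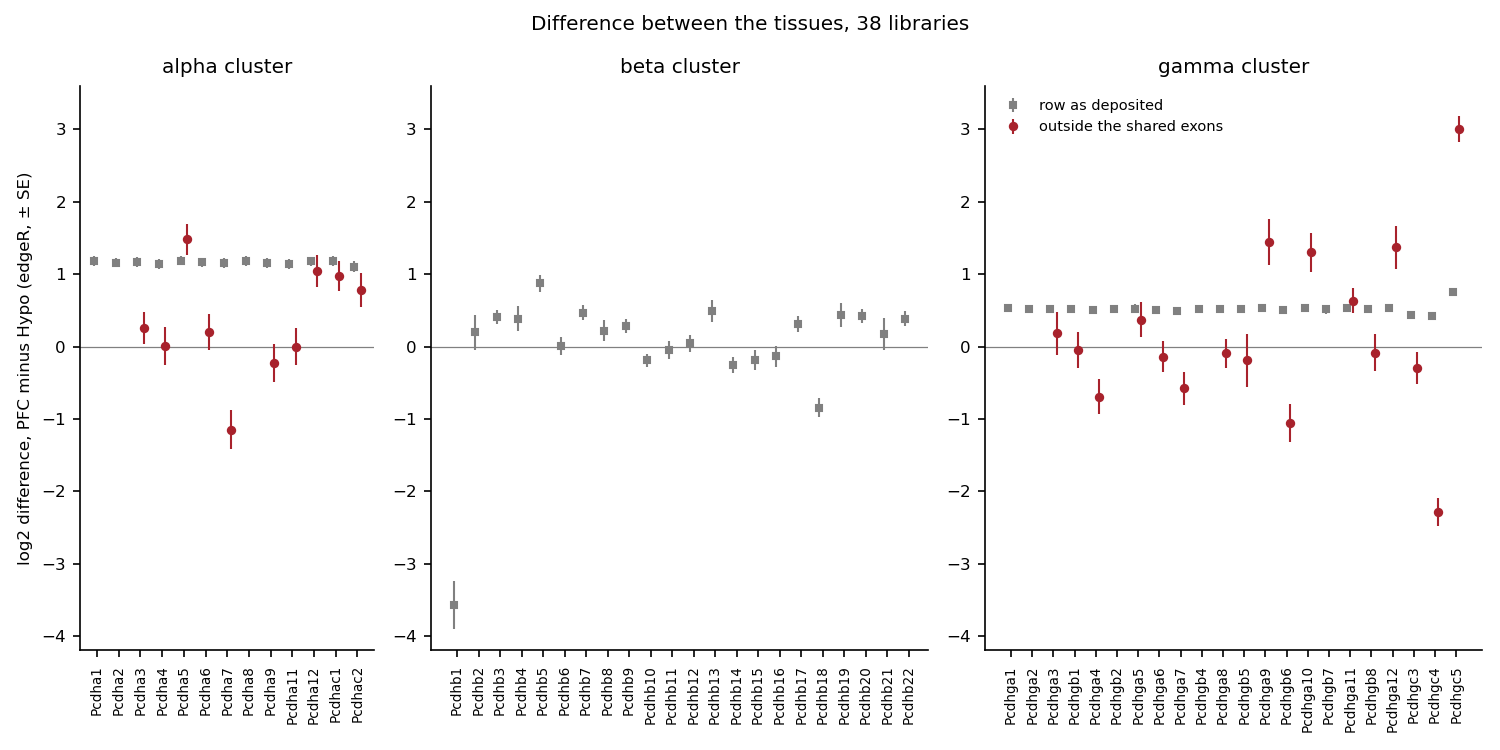
Difference between the tissues (log2, PFC minus Hypo) of each gene in order along its cluster, with bars of ± 1 SE from edgeR over 20 PFC and 18 Hypo libraries. Grey squares are the rows as deposited, which lie at 1.10 to 1.19 in alpha and 0.42 to 0.75 in gamma and reach -3.57 for Pcdhb1, and red circles are the reads outside the shared exons of the 27 resolved alpha and gamma genes, which run from -2.29 for Pcdhgc4 to 3.0 for Pcdhgc5.

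Among the C-type genes of the gamma cluster, Pcdhgc5 and Pcdhgc4 differed in opposite directions. Pcdhgc5 had 76.7 to 133 CPM (median 102) outside the shared exons in the PFC and 2.56 to 19.3 CPM (median 13.3) in the Hypo. Every PFC library lay above every Hypo library, a difference of 8.0-fold (log2 3.0, SE 0.181, edgeR adjusted p 9.64e-17), the largest of any resolved member in this direction. Pcdhgc4, which lies between Pcdhgc3 and Pcdhgc5 and is known for its part in neuron survival, had 4.65 to 8.54 CPM (median 6.61) in the PFC and 4.79 to 38.9 CPM (median 31.9) in the Hypo. It was lower in the PFC by a log2 difference of -2.29 (SE 0.191, edgeR adjusted p 8.12e-13), 4.88-fold higher in the Hypo. The only Hypo library within the PFC range was WT female 471, the others being at 29.4 CPM or more.

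Pcdhgc3 ranged from 29.9 to 91.8 CPM (median 44.6) in the PFC and from 8.86 to 68.0 CPM (median 60.2) in the Hypo. The tissues overlapped and the difference was not called (log2 -0.30, SE 0.219, edgeR adjusted p 0.233), but without Hypo WT female 471 it was called at an adjusted p of 0.0255. As shares of the reads of the gamma cluster outside its shared exons, Pcdhgc5 took 42.0% in the PFC and 6.25% in the Hypo, Pcdhgc4 2.80% and 14.9%, and Pcdhgc3 18.2% and 26.7% (medians). The library of Hypo WT female 471 had 6.64%, 12.4%, and 23.0% of its own reads in these genes. Its shares of Pcdhgc5 and Pcdhgc4 were thus on the side of the Hypo, although its reads outside the shared exons were few.

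The C-type genes of the alpha cluster were both called higher in the PFC over all libraries. Pcdhac2 ranged from 27.8 to 72.1 CPM (median 34.6) in the PFC and from 2.42 to 32.4 CPM (median 24.3) in the Hypo, and the ranges overlapped. Its log2 difference was 0.78 (SE 0.235, edgeR adjusted p 0.00417). Pcdhac2 took 56.8% of the alpha reads outside the shared exons in the PFC and 48.5% in the Hypo. It is the C-type gene known for its part in the spacing of serotonin axons. Pcdhac1 was low in both tissues, with 1.41 to 3.01 CPM (median 2.34) in the PFC and 0.188 to 1.68 CPM (median 1.08) in the Hypo, a log2 difference of 0.97 (SE 0.213, edgeR adjusted p 1.58e-04) with ranges that overlapped. Within 1 genotype, Pcdhac2 was not called in the WT libraries (0.69, edgeR adjusted p 0.0980) nor Pcdhac1 in the Ube3a2X libraries (0.76, edgeR adjusted p 0.0625).

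**Figure D4:**
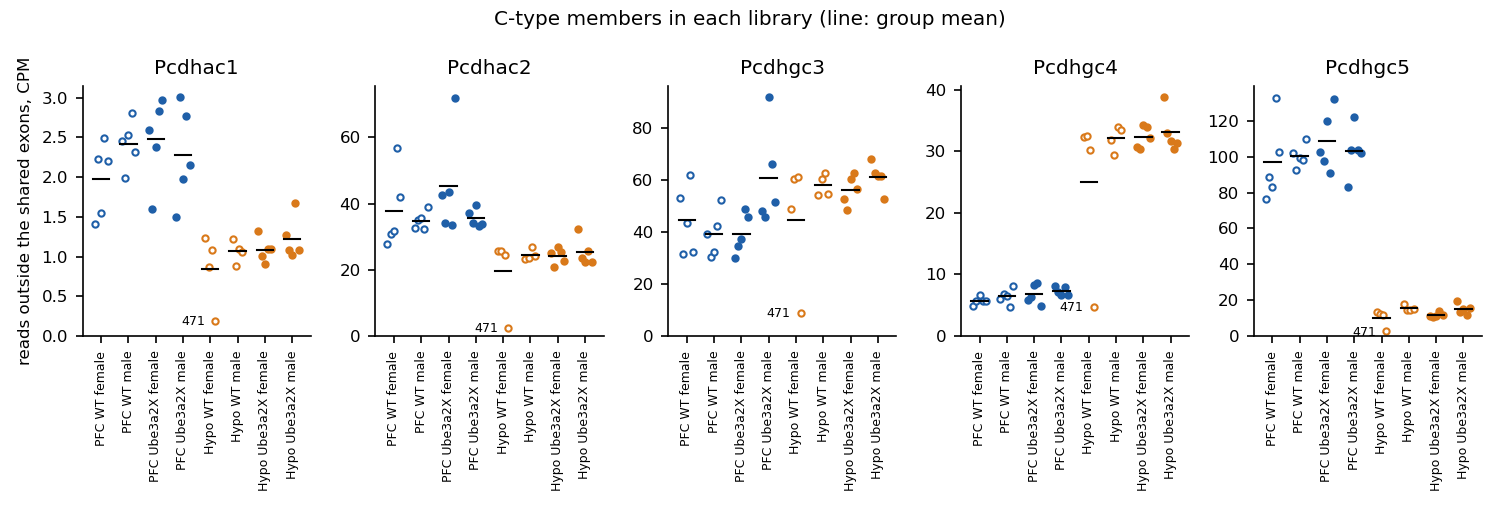
Reads outside the shared exons (CPM) of Pcdhac1, Pcdhac2, Pcdhgc3, Pcdhgc4, and Pcdhgc5, 1 point per library, by tissue, sex, and genotype; open points are WT, filled points Ube3a2X, and lines the group means. Pcdhgc5 is at 76.7 to 133 CPM in the PFC and at most 19.3 CPM in the Hypo, Pcdhgc4 is at most 8.54 CPM in the PFC and at least 29.4 CPM in the Hypo but for WT female 471.

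Among the alternate alpha genes, Pcdha5 had 1.42 to 4.54 CPM (median 2.58) in the PFC and 0.423 to 1.55 CPM (median 1.08) in the Hypo. Its log2 difference was 1.48 (SE 0.209, edgeR adjusted p 1.41e-07), and the ranges overlapped. Pcdha12, the last alternate gene before the C-type genes, had 2.97 to 8.68 CPM (median 6.38) against 0.446 to 3.83 CPM (median 2.67), a log2 difference of 1.04 (SE 0.220, edgeR adjusted p 1.08e-04), which was not called in the Ube3a2X libraries alone (0.80, edgeR adjusted p 0.0597). Pcdha7 was the only resolved alpha gene that was lower in the PFC, with 0.491 to 1.92 CPM (median 1.08) against 0.188 to 2.58 CPM (median 2.17) and a log2 difference of -1.15 (SE 0.266, edgeR adjusted p 3.16e-04). Pcdha4 and Pcdha11, with differences of 0.01 and 0.00, were, with Pcdhb6 (0.01), the resolved members with the largest p. Their SE was 0.262 for Pcdha4 and 0.256 for Pcdha11, so equal levels in the tissues are not shown.

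Among the alternate gamma genes, the 4 that were higher in the PFC were of type A and lie in the later part of the cluster. Pcdhga9 had 2.48 to 9.99 CPM (median 5.11) in the PFC and 0.213 to 3.605 CPM (median 2.24) in the Hypo (log2 difference 1.44, SE 0.317). Pcdhga12 had 3.45 to 11.5 CPM (median 4.90) and 0.540 to 4.18 CPM (median 2.14), with a difference of 1.37 (SE 0.294), and Pcdhga10 1.66 to 5.84 CPM (median 2.84) and 0.564 to 2.87 CPM (median 1.11), with a difference of 1.30 (SE 0.272). For all 3 the tissues overlapped, and Pcdhga10 was not called in the Ube3a2X libraries alone (1.41, edgeR adjusted p 0.0558). Pcdhga11 had 9.11 to 17.9 CPM (median 11.3) in the PFC and 1.76 to 9.06 CPM (median 7.71) in the Hypo, with a smaller difference of 0.63 (SE 0.174), but its ranges did not overlap. With the mouse as a fixed block over the 13 mice that gave both tissues, Pcdhga9 (1.56, edgeR adjusted p 0.103) and Pcdhga11 (0.55, edgeR adjusted p 0.0731) were not called.

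The alternate gamma genes that were lower in the PFC were Pcdhgb6, Pcdhga4, and Pcdhga7. Pcdhgb6 had 1.32 to 6.56 CPM (median 3.15) in the PFC and 1.76 to 13.7 CPM (median 8.29) in the Hypo, a log2 difference of -1.06 (SE 0.260, edgeR adjusted p 6.07e-04). Over the Ube3a2X libraries of both tissues alone its difference was -0.32 (edgeR adjusted p 0.525), and with the mouse as a fixed block it was -1.08 (edgeR adjusted p 0.0607), neither of which was called. Pcdhga4 (4.0 to 8.82 CPM, median 6.97, against 0.940 to 13.9 CPM, median 10.9) differed by -0.69 (SE 0.246), and Pcdhga7 (6.28 to 17.1 CPM, median 10.02, against 2.35 to 20.96 CPM, median 16.6) by -0.58 (SE 0.225). Neither was called in the libraries of 1 genotype alone (edgeR adjusted p 0.0919 and 0.115 for Pcdhga4 and 0.139 and 0.201 for Pcdhga7, in WT and Ube3a2X), and with the fixed mouse block Pcdhga7 was not called either (-0.62, edgeR adjusted p 0.0911). For Pcdhga4 only WT female 471 kept the tissues from being apart, as the other Hypo libraries were at 8.90 CPM or more.

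In the beta cluster, the first gene differed most. Pcdhb1 had 0.116 to 0.652 CPM (median 0.269) in the PFC and 0.117 to 5.51 CPM (median 3.76) in the Hypo. All Hypo libraries but WT female 471 were at 2.92 CPM or more, above the PFC, and the level was 11.9-fold higher in the Hypo (log2 -3.57, SE 0.332, edgeR adjusted p 1.23e-11), the largest of all members in this direction. Pcdhb18 was the other beta gene lower in the PFC, with 4.12 to 7.42 CPM (median 6.23) against 3.83 to 13.2 CPM (median 10.7) and a log2 difference of -0.85 (SE 0.130, edgeR adjusted p 6.87e-07). Without WT female 471, its tissues were apart too.

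Of the beta genes that were higher in the PFC, Pcdhb5 differed most. It had 11.4 to 24.2 CPM (median 15.2) in the PFC and 4.56 to 10.7 CPM (median 8.86) in the Hypo, with no overlap and a log2 difference of 0.87 (SE 0.115, edgeR adjusted p 3.68e-08). Pcdhb7 had 15.002 to 22.04 CPM (median 17.4) against 6.91 to 14.9 CPM (median 12.4), again with no overlap and a difference of 0.47 (SE 0.0978). The other beta genes called higher were Pcdhb13, Pcdhb19, Pcdhb20, Pcdhb3, Pcdhb22, Pcdhb17, and Pcdhb9, by 0.28 to 0.49 on the log2 scale. Of these, Pcdhb9 (0.15, edgeR adjusted p 0.578), Pcdhb13 (0.51, 0.0653), and Pcdhb17 (0.32, 0.0654) were not called with the mouse as a fixed block. Pcdhb17 and Pcdhb19 were not called in the WT libraries alone, nor Pcdhb9, Pcdhb13, and Pcdhb17 in the Ube3a2X libraries alone. The beta genes with the largest p were Pcdhb6 (0.01), Pcdhb12 (0.04), and Pcdhb11 (-0.04). Without WT female 471, 10 beta genes were higher and 5 lower, against 30.6% and 36.2% of all genes.

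Markers of cell types also differed between the tissues. The 7 excitatory neuron markers, of which 6 were higher and 1 (Slc17a6) lower in the PFC, summed to 5829 to 10625 CPM in the PFC and 594 to 1008 CPM in the Hypo. Of the 8 general neuron markers, 7 were higher and 0 lower in the PFC (11200 to 16692 CPM against 5125 to 6549 CPM), and of the 8 oligodendrocyte markers all were lower (1046 to 3652 CPM against 3300 to 5529 CPM). Inhibitory neuron markers summed to 799 to 1128 CPM against 661 to 1298 CPM, with 3 of 8 higher and 3 lower. Astrocyte markers, with 1 of 8 higher and 5 lower, summed to 5143 to 11454 CPM against 3624 to 5232 CPM. Slc17a7, which defines most cortical excitatory neurons, was at 0.406 to 8.38 CPM in the Hypo. RIN was 6.7 to 8.9 in the PFC (median 7.6) and 6.8 to 9.3 in the Hypo (median 8.95). The ratio of coverage at the 5′ over the 3′ end, which bears on the variable exons at the 5′ end, was 0.265 to 0.749 in the PFC (median 0.442) and 0.489 to 0.943 in the Hypo (median 0.735). The part of the cell mixture and of RNA quality in the protocadherin differences was not tested.

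Genes known to act with the clusters were counted as lists, with the shares of all genes called as above. Among 11 genes of chromatin looping, the machinery by which a promoter of the cluster is chosen, 2 were higher in the PFC (Pds5a 0.44, Ctcf 0.36, log2) and 1 was lower (Stag1 -0.39), with a median of 0.07. Among 11 genes of DNA methylation and promoter silencing, 0 were higher and 6 lower, among them Rest (-0.90), Tet1 (-0.80), and the DNA methyltransferase Dnmt3b (-0.71), with a median of -0.25. Of 11 cytoplasmic partners, which include kinases held by the shared tail and the WAVE complex of actin assembly, 9 were higher and 2 lower. The kinase genes Ptk2b (4.06) and Ptk2 (1.40) and the WAVE gene Wasf1 (2.38) were higher, and the receptor gene Ret (-3.40) and Cyfip1 (-0.31) were lower. Of 7 genes of membrane proteases that cut protocadherins, 2 were higher (Adam10 0.34, Ncstn 0.17) and 2 lower (Psen2 -0.48, Aph1a -0.30). Of 10 protocadherins outside the clusters, 3 were higher (Pcdh1 1.09, Pcdh7 0.98, Pcdh10 0.79) and 6 lower, from Pcdh20 (-1.51) and Pcdh17 (-1.37) to Pcdh8 (-0.39). Like the resolved clustered genes, they differed in both directions.

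The tissue difference did not differ detectably between genotypes or sexes in the members. The difference of the genotype effect between the tissues was called in 0 of the 57 members and in 0% of all genes by edgeR, and 1 member, Pcdhb18, had an unadjusted p under 0.05 (log2 -0.38, p 0.0326, adjusted 0.407), against 11.1% of all genes. The difference of the sex effect was called in 0 members and in 0.0675% of all genes (15 genes), and 2 members, Pcdhb6 and Pcdhb10, had an unadjusted p under 0.05, against 9.59% of all genes. On reads outside the shared exons it was called in 0 members, and 6 of 49 had an unadjusted p under 0.05 (again 9.59% of all genes), all below 0. Besides Pcdhb6 and Pcdhb10 these were Pcdhga8 (log2 -0.80, edgeR adjusted p 0.371), Pcdha3 (-0.62), Pcdhga7 (-0.58), and Pcdhgc5 (-0.51, edgeR adjusted p 0.501).

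The next comparisons asked whether extra copies of Ube3a or sex changed the members within a tissue. In the PFC, 54 members were tested: Pcdhb1 was removed for low reads, and Pcdhb7 and Pcdhgc5 for low variance between libraries. By edgeR, 0 members were called for genotype, where 0.0184% of 10875 genes were called, 0 for sex (0.0920%), 0 for genotype in males (0.0184%), and 0 for genotype in females (0.00920%). An unadjusted p under 0.05 was seen in 2 members for genotype (7.59% of all genes) and in 5 for sex (8.81%). For genotype in males it was seen in 21 gamma rows (18.6% of all genes), and in females in 12 alpha rows and 4 beta genes (14.6%). DESeq2 called 0 of the rows too. The median log2 difference of the members between Ube3a2X and WT was 0.05. The spread between mice of a group, as the median biological coefficient of variation, was 8.53% for alpha rows, 7.11% for gamma rows, and 11.9% for beta rows, with 10.04% over all genes. It was 20.8% and 20.5% for alpha and gamma reads outside the shared exons.

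The smallest p for genotype in the PFC was that of Pcdhb4. Its WT females had 4.86, 5.52, 4.67, 5.91, and 6.79 CPM and its Ube3a2X females 5.03, 3.91, 5.21, 4.17, and 6.15 CPM. Its WT males had 4.58, 3.83, 5.24, 4.75, and 5.32 CPM and its Ube3a2X males 4.26, 4.42, 4.72, 4.65, and 3.87 CPM. The genotypes overlapped in both sexes, with a log2 difference of -0.30 (SE 0.0789, edgeR adjusted p 0.320). For sex, the smallest p was that of Pcdhb6, with 11.6 to 20.9 CPM in the 10 females and 9.04 to 13.9 CPM in the 10 males, which overlapped (log2 -0.38, SE 0.106, edgeR adjusted p 0.331). In reads outside the shared exons, Pcdha9 had the smallest p for genotype (0.64, SE 0.166, edgeR adjusted p 0.179).

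The interaction of genotype and sex in the PFC was called in 0 members by edgeR and in 0% of all genes, but 35 of the 54 members had an unadjusted p under 0.05 (21 above and 14 below 0), as did 25.6% of all genes. The paper, with limma and its own set of genes, reports many genes for this interaction in the PFC. It also reports the interaction by qRT-PCR for some genes in other mice, so the 0% holds for this edgeR fit only. The 35 members are 12 alpha rows, 2 beta genes, and 21 gamma rows, and since the alpha and gamma rows share their reads, the shared reads were looked at directly. For alpha, WT females had 180, 191, 178, 189, and 203 CPM and Ube3a2X females 216, 201, 206, 213, and 277 CPM, and WT males had 184, 200, 209, 181, and 171 CPM and Ube3a2X males 201, 195, 160, 183, and 186 CPM. The Ube3a2X females were high, 4 of 5 above all WT females, whereas the males overlapped. The interaction was -0.27 (SE 0.0996, edgeR adjusted p 0.141), negative where the genotype difference is lower in males.

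For the shared gamma reads, the males were the ones apart. WT males had 526, 457, 466, 499, and 514 CPM and Ube3a2X males 591, 552, 542, 612, and 619 CPM, with no overlap, a pattern in the same direction as in 2.30% of the 10875 genes. WT females had 573, 492, 510, 510, and 454 CPM and Ube3a2X females 450, 468, 519, 547, and 473 CPM, which overlapped. The interaction was 0.28 (SE 0.0954, edgeR adjusted p 0.126), of the opposite sign to that of alpha, and neither was called.

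Some quality measures and markers of cell types also differed between the genotypes in PFC males, the sex in which the shared gamma reads were apart. Intronic bases were 4.40 to 5.85% in WT males and 3.10 to 4.004% in Ube3a2X males, which did not overlap. The share of reads on the right strand overlapped, at 92.6 to 95.2% (median 93.6%) and 92.1 to 99.1% (median 99.1%). The 8 microglia markers summed to 239 to 322 CPM in WT males and 339 to 358 CPM in Ube3a2X males, with no overlap. In females, intronic bases (3.27 to 4.92% in WT, 3.06 to 4.29% in Ube3a2X) and microglia markers (241 to 362 and 238 to 347 CPM) overlapped. In males, the 7 excitatory neuron markers were apart as a sum (6006 to 7380 and 7539 to 10625 CPM), but most of it was Camk2a. The other 6 summed to 2174 to 2483 and 2295 to 2803 CPM, which overlapped, and the median difference of the tested excitatory markers between the genotypes in males was -0.06. The median interaction over the tested markers was 0.24 for astrocytes, 0.32 for oligodendrocytes, 0.35 for their precursors, 0.24 for microglia, 0.36 for endothelial and mural cells, and -0.17 for excitatory neurons, with 0 markers called. Their part in the alpha and gamma values was not tested.

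The smallest p for the interaction among the rows was that of Pcdhgc3 (0.27, SE 0.0921, edgeR adjusted p 0.104), and among reads outside the shared exons that of Pcdhga12 (0.73, SE 0.210, edgeR adjusted p 0.101). With each PFC library left out, the Pcdhgc3 row gave 0.12 (without WT female 397) to 0.38 (without WT female 93). Without PFC WT female 93, the fit called 24 members: 21 gamma rows above 0 (0.30 to 0.38) and the beta genes Pcdhb16, Pcdhb19, and Pcdhb22 below 0 (-0.57 to -0.41). That fit called 15.1% of all genes, 1646 of 10893, so calls also appeared outside the protocadherins. The 21 gamma rows have nearly all of their reads in common and are not 21 observations.

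In the Hypo, the filter on low variance removed all 13 alpha and all 22 gamma rows, and the 22 beta genes were tested. Without that step all 57 members were tested, and edgeR called the same 4 for sex as below and 0 in the other contrasts. In that fit 35 of the 57 had an unadjusted p under 0.05 for sex, but the alpha and gamma rows share their reads. The share of all genes, given below, is that of the filtered fit. In the shared reads, the log2 difference between males and females was -0.07 for alpha (SE 0.0422, edgeR adjusted p 0.488). For gamma it was 0.09 (SE 0.0445, edgeR adjusted p 0.420). With the filter, edgeR called 4 of the 22 beta genes for sex, all lower in males, against 2.35% of the 11844 genes (1.05% with males lower, 1.30% with males higher). These were Pcdhb19, Pcdhb20, Pcdhb21, and Pcdhb22, the last genes of the cluster. The annotated exons of Pcdhb21 and Pcdhb22 overlap by 455 bases, so their rows may hold common reads and are not fully separate calls. Of the 22 beta genes, 21 had a lower estimate in males (median log2 difference -0.13, against -0.00 over all genes), and 8 had an unadjusted p under 0.05, as did 17.7% of all genes. Of these 8, 7 lie from Pcdhb15 on.

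Pcdhb21 showed the largest of these differences. Its WT females had 7.83, 8.33, 8.21, and, in WT female 471, 1.43 CPM, and its Ube3a2X females 8.52, 8.94, 8.82, 9.12, and 9.29 CPM. WT males had 6.02, 5.86, 5.23, and 5.88 CPM and Ube3a2X males 11.7, 7.66, 6.98, 7.36, and 8.35 CPM. WT males were below 3 of the 4 WT females, while in Ube3a2X the male with 11.7 CPM was above all females. The log2 difference between males and females was -0.39 (SE 0.0545, edgeR adjusted p 0.00146).

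For Pcdhb22, WT females had 18.2, 16.2, 17.5, and 12.3 CPM and Ube3a2X females 17.9, 18.8, 19.4, 18.2, and 18.5 CPM. WT males had 14.1, 13.5, 14.1, and 15.2 CPM and Ube3a2X males 21.7, 15.2, 14.5, 16.8, and 17.2 CPM. Again 1 library in each genotype, WT female 471 and the highest Ube3a2X male, kept the sexes from being apart. The log2 difference was -0.27 (SE 0.0532, edgeR adjusted p 0.0153).

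For Pcdhb20, WT females had 11.6, 11.7, 11.7, and 7.09 CPM and WT males 10.3, 10.2, 8.20, and 9.47 CPM. Ube3a2X females had 13.5, 12.2, 13.2, 11.9, and 11.7 CPM and Ube3a2X males 11.8, 11.3, 9.87, 10.3, and 9.57 CPM. The sexes overlapped by 1 library in each genotype (log2 -0.27, SE 0.0589, edgeR adjusted p 0.0219). For Pcdhb19, WT females had 13.3, 10.2, 12.4, and 3.29 CPM and WT males 10.3, 10.1, 8.94, and 9.10 CPM. Its Ube3a2X females had 11.9, 11.3, 11.4, 14.3, and 13.1 CPM and its Ube3a2X males 16.6, 9.79, 10.9, 11.4, and 11.3 CPM, with more overlap (log2 -0.26, SE 0.0654, edgeR adjusted p 0.0464). Next in order were Pcdhb18 (-0.19, edgeR adjusted p 0.0650) and Pcdhb15 (-0.28, edgeR adjusted p 0.0671), which were not called.

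These sex differences depended on the surrogate variables of the fit. With RIN and no surrogate variables, 0 of the 4 were called, with 0.110% of all genes called, and their log2 differences were -0.05 to -0.20 (edgeR adjusted p 0.493 to 0.893). In reads outside the shared exons, where all genes that pass a filter on low counts were tested, edgeR called 2 of the 49 members (Pcdhb21 and Pcdhb22, 1.04% of 21261 genes called), and 5 without WT female 471 (2.87%). DESeq2 called 7 members in the rows, where it called 5.52% of all genes. With each of the 18 Hypo libraries left out in turn, Pcdhb21 and Pcdhb22 were called each time, Pcdhb20 was lost in 4 fits (edgeR adjusted p up to 0.0846) and Pcdhb19 in 12 (up to 0.141), and leaving out Ube3a2X male 258, WT female 262, or Ube3a2X female 272 left 2 of the 4. By limma-voom (adjusted p 0.0588) and after a GC and length offset (edgeR adjusted p 0.0962), Pcdhb19 was lost too. Markers of cell types and regions were called for sex in the same fit: Camk2a (0.20), Gfap (0.51), Kl (0.36), Lamp5 (0.81), and Agrp (0.84) were higher in males on the log2 scale, and Olig1 (-0.20) and Tmem212 (-0.43) were lower, each 1 gene of its list. As sums, the 8 astrocyte markers were at 4573 to 5232 CPM in males and 3624 to 5096 CPM in females, the 6 markers of oligodendrocyte precursors at 249 to 269 and 248 to 301 CPM, and the 5 ependyma markers at 38.02 to 59.0 and 45.7 to 90.4 CPM, all with overlap. The 6 pituitary markers were at 14.3 to 557 CPM in males and 21.8 to 4686 CPM in females, with overlap. The 2 that were tested had a median log2 difference of -1.13, and 0 were called. Their part in the sex differences of the beta genes was not tested.

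In 0 members were the sexes apart in the same direction in both genotypes, a pattern that 0.186% of genes had with males higher and 0.144% with males lower. Of the gamma genes, Pcdhgc5 outside the shared exons had 13.2, 12.1, 11.6, and, in WT female 471, 2.56 CPM in WT females and 17.7, 14.6, 14.8, and 15.3 CPM in WT males. In Ube3a2X the sexes overlapped, with 10.7 to 14.2 CPM in females and 11.5 to 19.3 CPM in males, and the difference was not called (log2 0.25, SE 0.0737, edgeR adjusted p 0.133).

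**Figure D5:**
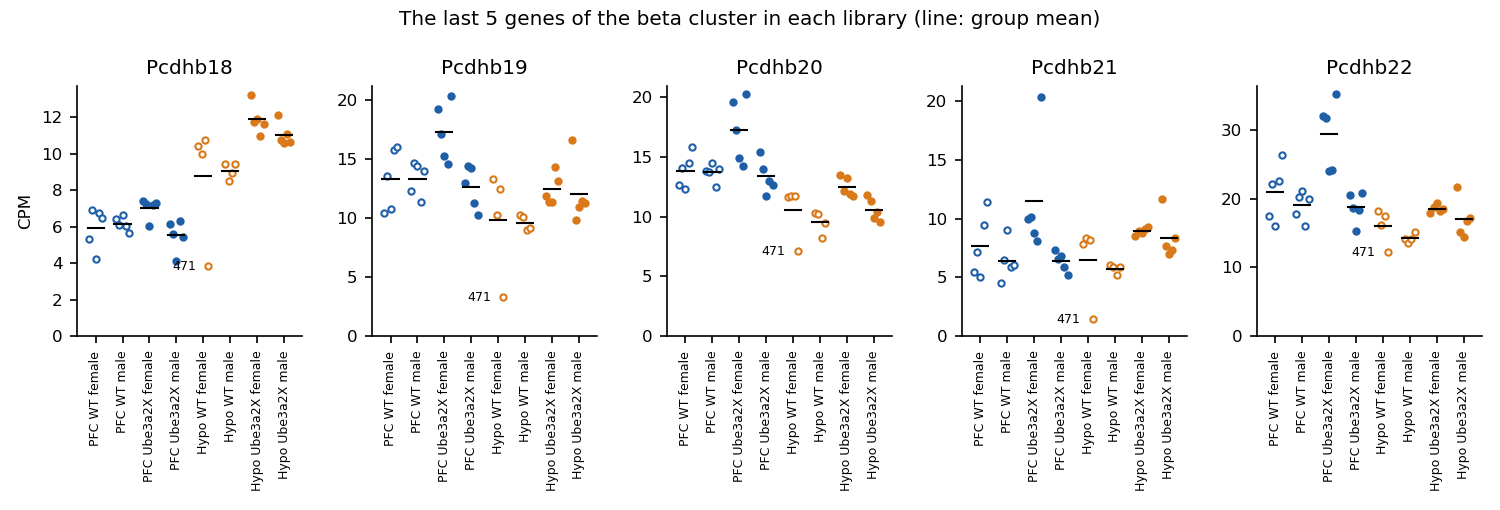
CPM of Pcdhb18, Pcdhb19, Pcdhb20, Pcdhb21, and Pcdhb22, 1 point per library, by tissue, sex, and genotype; open points are WT, filled points Ube3a2X, and lines the group means. In the Hypo, WT female 471 is the lowest library for Pcdhb18 (3.83 CPM), Pcdhb19 (3.29), Pcdhb20 (7.09), Pcdhb21 (1.43), and also Pcdhb22, and both genes Pcdhb18 and Pcdhb21 are higher in all Ube3a2X than in all WT libraries of the same sex.

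For genotype in the Hypo, edgeR called 0 members, with 0.00844% of all genes called. Of the 22 beta genes, 8 had an unadjusted p under 0.05 (7 higher and 1 lower in Ube3a2X, 5.07% of all genes), and 17 had a higher estimate in Ube3a2X (median log2 difference 0.09, against -0.00 over all genes). The smallest p were those of Pcdhb21 (0.25, SE 0.0564, edgeR adjusted p 0.528) and Pcdhb18 (0.21, SE 0.0534, edgeR adjusted p 0.830). For Pcdhb18, WT females had 10.4, 10.001, 10.8, and, in WT female 471, 3.83 CPM, and Ube3a2X females 13.2, 11.7, 11.9, 10.96, and 11.6 CPM. WT males had 9.42, 8.49, 8.97, and 9.42 CPM and Ube3a2X males 12.1, 10.7, 10.6, 11.1, and 10.7 CPM. Every Ube3a2X library was above every WT library of its sex, as also for Pcdhb21. Markers of cell types moved with genotype in the Hypo too, with 0 called. The 8 inhibitory neuron markers summed to 988 to 1199 CPM in WT males and 661 to 920 CPM in Ube3a2X males, with no overlap, and to 1049 to 1298 and 936 to 1171 CPM in females, which overlapped. The median difference of the tested markers was -0.25 for inhibitory neurons, -0.23 for hypothalamus identity, -0.23 for ependyma, and 0.21 for oligodendrocytes. Their part in the values of Pcdhb18 and Pcdhb21 was not tested.

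Besides these 2 of the 22 beta genes, Ube3a was the only other gene of the 11844 tested that was higher in every Ube3a2X library of both sexes in the Hypo (0.0253% of genes). In the other direction 0 members were apart (0.00844% of genes). This was noticed after the values were seen, and it is a description. In the PFC, 0 of the members had this pattern (0.00920% of genes). Leaving out each Hypo library in turn gave log2 differences of 0.18 to 0.23 for Pcdhb18 and 0.22 to 0.28 for Pcdhb21, with edgeR adjusted p of 0.108 or more and 0.0997 or more. With RIN and no surrogate variables, the differences were larger and less precise, 0.40 (SE 0.141) for Pcdhb18 and 0.56 (SE 0.227) for Pcdhb21, both with an edgeR adjusted p of 0.544. On reads outside the shared exons, edgeR called 0 members (0.00941% of genes), and DESeq2 called both and 0.141% of all genes (adjusted p 0.00208 for Pcdhb18 and 0.0235 for Pcdhb21), but on the rows neither (0.222 and 0.0647). The counts of a beta gene are the same in both measures, so these fits differ in the filter on genes and in what is estimated from the genes kept. The difference of Pcdhb18 and Pcdhb21 was in the same direction in each of these fits. Only DESeq2 called it, and only with the filter on low counts alone.

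The other contrasts in the Hypo called 0 members by edgeR: the interaction (0% of genes called, an unadjusted p under 0.05 in 2 members and 7.29% of genes, smallest for Pcdhb22 with an adjusted p of 0.664), genotype in males (0%, 6 members and 9.07%, Pcdhb21 0.403), and genotype in females (0.00844%, 2 members and 3.24%, Pcdhb18 0.999). In the shared reads of the Hypo, the genotype difference was -0.01 for alpha (SE 0.0431) and -0.00 for gamma (SE 0.0455). Within the tissues, the genes of the related lists were called in the Hypo for sex only, where Pcdh11x and Pcdh9, protocadherins outside the clusters, were lower in males.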

How the data were processed

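RNA-seq libraries (TruSeq Stranded mRNA, paired-end) were made from the PFC and Hypo of WT and Ube3a2X mice. Per the submitters' notes and the study's methods, the authors aligned with STAR to GRCm38/mm10 and counted reads per gene with featureCounts; the deposited counts are raw. The deposited table of quality measures, made with Picard by the authors, gives RIN as a score, base shares as a fraction, and coverage measures as a ratio; no value was changed except shares to percent. The quality row of PFC WT male 266 was joined by its sample name, since its mouse number reads 66.

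Of 54165 rows, 107 that repeat a symbol with further IDs were removed, which left 54058 genes; Pcdha11 stood under 2 IDs with identical counts. All 57 members had coordinates, GC content, and length in GENCODE vM21. For levels per kb, the exon bases shared by a whole cluster were left out, where the plan had left out bases shared with any gene.

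Groups follow the labels. PFC and Hypo were compared over all 38 libraries in R 4.3.3 with edgeR 4.0.16 (TMM, filterByExpr, robust glmQLFit, glmQLFTest; RIN as covariate). Each tissue was fitted alone after a filter made from the study's description (no gene under 100 reads in 2 or more libraries, and none of the 15% that vary least on the log2-CPM scale with a prior count of 2, a scale the study does not give, so that the genes kept are not the study's own set) with RIN and 2 surrogate variables (sva 3.50.0). p-values were adjusted by Benjamini and Hochberg over all genes tested, and called under 0.05. SE and differences are on the log2 scale. The split into shared reads and reads outside the shared exons was chosen after the table was seen, and was fitted with filterByExpr. Alternatives used limma 3.58.1 (voom), DESeq2 1.42.0, RLE factors, other filters and covariates, a GC and length offset, mouse blocks, and each library left out. Python 3.11.15 read the annotation, and matplotlib 3.10.9 drew the figures. Scripts were tested on simulated data.

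Members and lists were chosen with earlier results of these data known. Named are the C-type genes, the 3 highest and 2 lowest genes per cluster and tissue, the 5 called with the smallest p per direction and the 3 with the largest p between tissues, and in other contrasts every called gene and the one with the smallest p; other genes were named after their values were seen. Counts of 2 libraries of the same group differed by 11.1 to 500 times as much as sampling noise gives (squared differences, 72 pairs), a value over whole libraries that does not hold for members with few reads; the p-values measure the spread between mice. The 13 mice with both tissues pair the libraries by label; deviations of the tissues of 1 mouse correlated at -0.31 to 0.21 (median -0.01).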

Additional observations from a re-analysis of the deposited data

Results flagged for a closer look

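Within groups of 4 or 5 libraries, 112 sets of values (shared reads, reads outside the shared exons, the C-type genes, and the named beta genes) were searched for a library whose gap to its nearest neighbour was large for the range of its group (Dixon's test at 95%). Chance gives about 1 in 20 groups, or 5.6 of 112, and 16 were found, 7 of them in Hypo WT female 471. That library was low in reads outside the shared exons of alpha (5.80 CPM, next 50.6) and gamma (38.6, next 208), in Pcdhac2 (2.42, next 24.6), Pcdhgc4 (4.79, next 30.3), and Pcdhgc5 (2.56, next 11.6), and in Pcdhb20 (7.09, next 11.6) and Pcdhb21 (1.43, next 7.83).

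PFC Ube3a2X female 468 was high in shared alpha reads (277 CPM, next 216), in Pcdhac2 (72.1, next 43.5), and in Pcdhb21 (20.4, next 10.2). Ube3a2X male 238 was high in alpha reads outside the shared exons in the PFC (65.3 CPM, next 60.2) and, in the Hypo, in gamma reads outside the shared exons (271, next 221) and in Pcdhb19 (16.6, next 11.4). Gamma reads outside the shared exons were also high in PFC Ube3a2X male 258 (358 CPM, next 251) and PFC WT female 397 (330, next 240), and shared gamma reads in Hypo WT male 245 (386, next 353).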

How the results depend on the processing

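Between the tissues, the 2 members lower in the PFC were 4 with no filter on low counts, 5 without RIN, 4 with the coverage ratio in place of RIN, and 2 to 5 with each library left out (4 without PFC Ube3a2X male 258, 5 without Hypo WT female 471), where the share of all genes lower went from 32.4% to 22% with no filter, 39.1% without RIN, 36.2% with the coverage ratio, and 26.8 to 36.2% with each library left out. On reads outside the shared exons, the 7 lower members were 12 without RIN (39.2% of all genes), 4 in Ube3a2X libraries (22.9%), and 6 to 11 with each library left out (11 without Hypo WT female 471). For sex in the Hypo, the 4 members called were 7 by DESeq2 (5.52% of all genes), 0 with RIN and no surrogate variables (0.110%), 2 with filterByExpr (1.06%), and 2 to 6 with each library left out. On reads outside the shared exons, the 2 called were 7 by DESeq2 (2.57%), 0 with no surrogate variables, and 5 without Hypo WT female 471. There DESeq2 also called 1 member for genotype (Pcdha9, with 1.85% of all genes called), 1 for sex (Pcdhb6, 0.687%), and 3 for the interaction (5.69%) in the PFC, and 2 each for genotype (0.141%) and for genotype in males (0.390%) in the Hypo, where edgeR called 0. The interaction in the PFC gave 0 to 24 members with each library left out. The cluster totals of alpha (1.11) and gamma (0.55) were 0.84 and 0.28 by total counts without TMM, where beta turned from 0.19 to -0.085, alpha was 0.94 with each shared read counted once, and both were 0.59 and 0.34 on reads outside the shared exons. The cause of these changes was not tested.

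Differences that were not called changed sign: Pcdhb6 to -0.12 to 0.10 with each library left out, -0.00058 by limma-voom (-0.00053 on reads outside the shared exons), -0.0030 with the mouse as a random block, -0.049 with the study's filter, -0.070 with no filter, -0.11 without RIN, -0.025 in WT libraries, and -0.089 with the coverage ratio. Pcdhb12 gave -0.016 to 0.12 with each library left out, -0.013 with the study's filter, -0.033 with no filter, and -0.028 with the coverage ratio. Pcdhb11 gave 0.0040 without the GC and length trend, 0.068 in WT libraries, and 0.017 with the coverage ratio. Pcdha11 gave -0.072 to 0.074 with each library left out, -0.00022 with RLE factors, -0.40 in Ube3a2X libraries, and -0.024 with 1 fixed row as the shared reads. Pcdha4 gave -0.094 to 0.086 with each library left out, -0.22 without RIN, -0.088 in WT libraries, and -0.010 with the fixed row. Pcdhga7, for genotype in Hypo females, turned from -0.24 to 0.13 with no surrogate variables.

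Of the 25 resolved members called between the tissues on reads outside the shared exons, 25 were called with the mouse as a random block, 18 with it as a fixed block (13 mice), 20 in WT libraries, and 16 in Ube3a2X libraries, and 25 kept their direction in each. The calls lost under the pairing as a fixed block were Pcdhb13, Pcdhb17, Pcdhb9, Pcdhga11, Pcdhga7, Pcdhga9, and Pcdhgb6 (-1.08, adjusted p 0.0607). No paired analysis was possible within a tissue because each mouse gave 1 library there. Depth limited members with few reads, such as Pcdhb1 with 6 to 29 reads per PFC library, and reads outside the shared exons are not always a gene's own.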
